A study of Mus musculus with 38 samples.

Results

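The transcriptome of colon epithelium was measured by RNA-seq 4 h after an injection of 1,25(OH)2D3 (calcitriol), the hormonal form of vitamin D, or of its vehicle. The samples analysed were the 7 vitamin D and 6 vehicle libraries of colon among the 38 libraries of the series, and the genes were the 11540 of 21441 that reached an FPKM of 1 in 6 or more of these 13 libraries. FPKM is a fragment count scaled by transcript length and library size. Of the genes at the edge of this filter, 186 reached an FPKM of 1 in exactly 6 libraries (median of their median levels 0.909 FPKM) and passed, and 196 reached it in 5 (median 0.812 FPKM) and did not. All mice, controls included, were wild-type C57BL6/J animals made vitamin D deficient before the experiment. The vitamin D group received 10 ng of the hormone per g of body weight into the peritoneum, and the vehicle group 0.1 ml of propylene glycol and ethanol. The labels give an age of 12 to 14 weeks in the treatment protocol and of 10 to 13.3 weeks in the sample characteristics, and call the animals pooled males and females. Epithelium was taken from the whole length of the colon by scraping it from the muscle beneath. How many mice went into each library is not stated in the labels, and the p-values therefore measure only how these libraries vary, which may be technical.

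Calcitriol enters cells and binds the vitamin D receptor (VDR), which pairs with a retinoid X receptor (RXR) and binds DNA at pairs of short half-sites 3 bases apart. In the gut the receptor is best known for raising the genes of calcium uptake: a channel that lets calcium in at the apical membrane (Trpv6), a protein that carries it across the cytosol (calbindin-D9k, from S100g) and a pump that expels it at the basal side (PMCA1, from Atp2b1). The hormone also raises Cyp24a1, the enzyme that degrades it. The colon has a high level of the receptor, and takes up salt, water and part of the calcium left over by the small intestine.

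The libraries were checked first. Depth, recovered from the steps between low values, was 13.8 to 16.7 M reads per library (median 15.6). Epithelial markers were abundant in every library: the summed FPKM of 12 genes such as Epcam, Cdh1 and Krt8 was 10210 to 13630 in vehicle and 7879 to 12270 in vitamin D libraries. The colon transcription factor Hoxb13 was present, with a mean of 179 FPKM in vehicle libraries. Of 18 genes of squamous anal epithelium, 14 stayed under 1 FPKM in every library, the keratins Krt5 and Krt14 among them. The sum of the list was 14.4 to 38.5 FPKM in vehicle and 26.1 to 42.2 FPKM in vitamin D libraries. Most of it came from Sprr1a, a protein of cornified envelopes, with means of 19.9 and 24.0 FPKM. Surface colonocyte markers such as Car1 and Aqp8 summed to 13800 to 24500 FPKM in vehicle and 17100 to 30630 FPKM in vitamin D libraries. Epithelial and surface colonocyte markers were thus abundant in every library, and markers of other cells were present beside them. By Xist and Ddx3y, 7 libraries had a female and 6 a male pattern, and none had both.

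Smooth muscle transcripts set vitamin D libraries 1 and 2 apart from the other 11. Myl9, a myosin light chain of smooth muscle, measured 903 and 2779 FPKM in these libraries and 1.66 to 103 FPKM in the other 11. Mylk, the kinase that phosphorylates it, measured 131 and 321 FPKM against at most 33.7 FPKM elsewhere. The same held for Acta2 (746 and 1977 FPKM against at most 101) and Des (299 and 1381 against at most 57.7). Summed over the 18 smooth muscle markers, these libraries reached 5810 and 19820 FPKM. The lowest, median and highest sums were 323, 450.1 and 1132 FPKM in vehicle and 300.3, 565 and 19820 FPKM in vitamin D libraries. Fibroblast markers followed, with sums of 405 and 1170 FPKM against at most 218 FPKM in the others, and so did neuronal and glial markers (70.7 and 124 against at most 15.8). None of the 14 smooth muscle and 13 fibroblast genes tested was called changed, although all had a positive log2 fold change (medians 1.35 and 0.81). In bulk samples such as these, more cells of a type and more RNA per cell cannot be told apart. Each result below that loses its call without vitamin D 1 and 2 is given with its value in their absence.

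**Figure D1:**
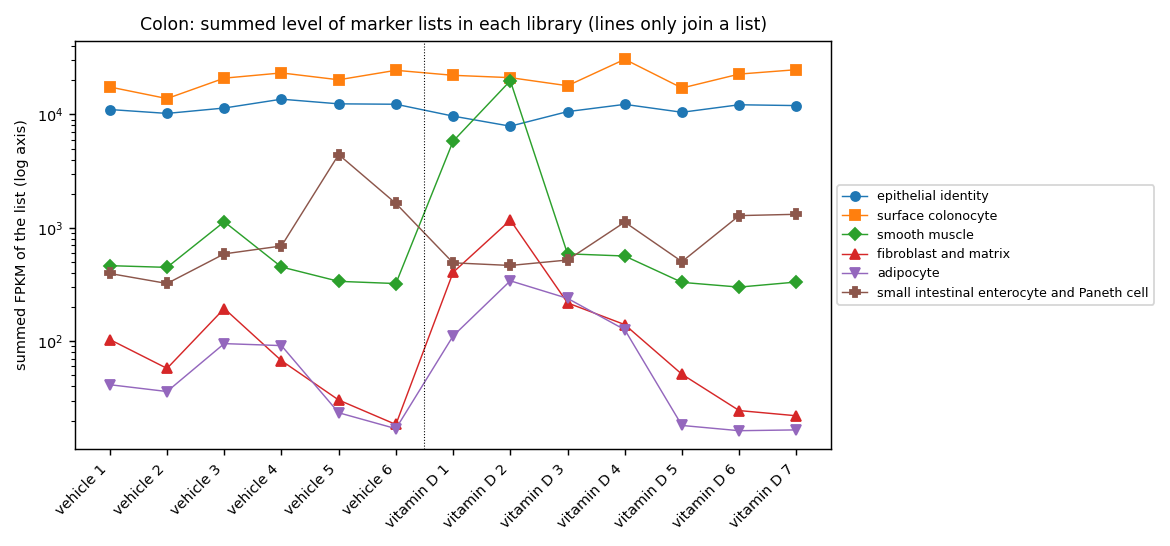
Summed FPKM of 6 marker lists (log axis) in the 6 vehicle and 7 vitamin D libraries of colon, with lines that only join the points of a list. Epithelial and surface colonocyte sums are high in every library, smooth muscle and fibroblast sums peak in vitamin D 1 and 2, and small intestinal markers are highest in vehicle 5.

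A second set of libraries differed in another respect. Vehicle 5, vehicle 6, vitamin D 6 and vitamin D 7, whose column names start with a number, held the most Apoa1, a transcript of small intestinal enterocytes. Apoa1, an apolipoprotein of absorptive cells, measured 528, 358, 277 and 241 FPKM in them and 3.13 to 29.2 FPKM in the other 9. The sum of the 17 small intestinal and Paneth cell markers was 323 to 4428 FPKM in vehicle and 465.9 to 1317 FPKM in vitamin D libraries, so both groups held high and low libraries. Its highest values, 4428, 1642, 1282 and 1317 FPKM, were in the same libraries, but vitamin D 4, named otherwise, reached 1123 FPKM. All of these libraries had the male pattern of Xist and Ddx3y, as had vehicle 4 (692 FPKM). The 7 libraries with the female pattern had sums of 323 to 589.6 FPKM, below every male one. Naming style and sex pattern thus overlap, and the part of each was not tested. Not every marker set these libraries apart: Apob was lower in vitamin D 6 (40.7 FPKM) than in vehicle 3 (47.6) and vitamin D 1 (42.3).

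At an adjusted threshold, more colon genes were called higher than lower after calcitriol. By limma's moderated test on log2(FPKM + 0.5), with Benjamini-Hochberg adjustment over all genes tested and a threshold of 0.05, 88 genes were higher (0.763% of those tested) and 7 lower (0.0607%) in vitamin D libraries, 0.823% in all. The fold change was 2 or more for 49 of the 88, and their median log2 fold change was 1.12, from 0.38 up to 9.10 for Cyp24a1. Over all genes tested the log2 fold changes were balanced around 0, with 50.04% positive. At an unadjusted p under 0.05 the counts were near equal, with 481 genes higher and 448 lower. Every vitamin D library lay above every vehicle library for 87 genes (0.754%), 67 of them among the 88, and below every vehicle library for 13 genes (0.113%), 5 of them among the 7. In the authors' deposited table, 205 genes were higher (1.37% of 15002) and 41 lower (0.273%) at an adjusted p of 0.05, among them all 88 and 6 of the 7. Without vitamin D 1 and 2, 54 genes were called higher, all of them among the 88, and 4 lower. The sign of all 95 fold changes was kept there, and the median log2 fold change of the 88 genes was 1.03. Of the 88, 5 reached 1 FPKM in at most 1 vehicle library (Cdyl2, Grin1 and Cthrc1 in none, Gm8883 and Trim47 in 1), and of the 7, Cldnd1 did so in 1 vitamin D library. These 6 genes, named after their values were seen, passed the filter only through the group where they were high. Rhov reached 1 FPKM in 3 vehicle libraries, Cyp24a1, Ptges and Trpv6 in 4, and Atoh8, Gdpd5 and H2-Bl in 5. They too needed vitamin D libraries to pass. Without vitamin D 1 and 2, Grin1, Gm8883 and Trim47 were not called (log2 fold changes 0.84, 1.31 and 1.66, adjusted p = 0.106, 0.145 and 0.229). With no filter, 76 of the 88 and 4 of the 7 were still called.

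**Figure D2:**
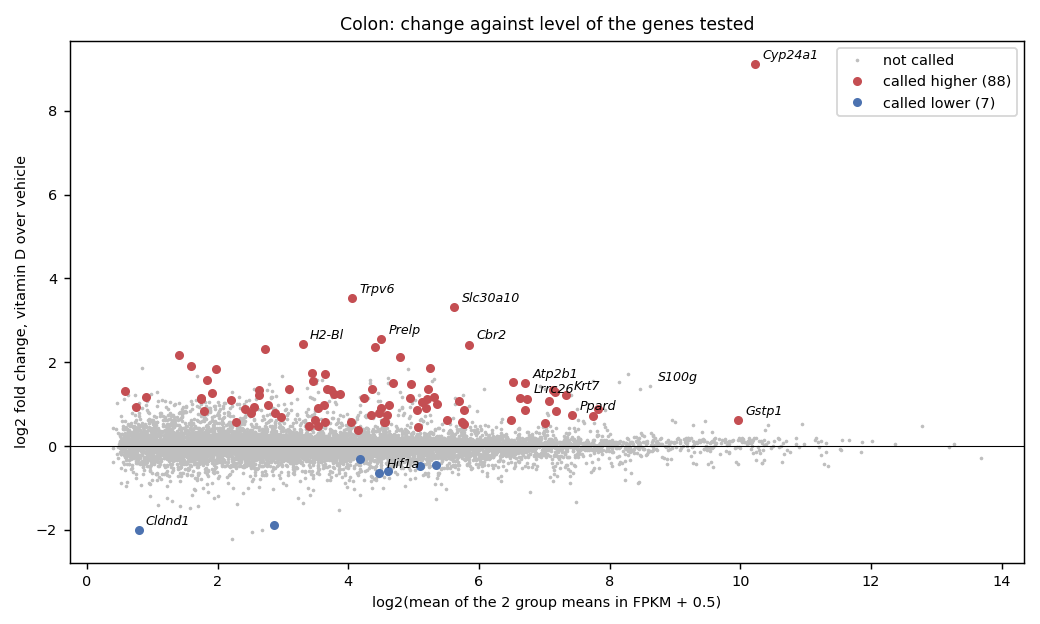
Log2 fold change of vitamin D over vehicle against the level of each of the 11540 genes tested in colon, on the log2(FPKM + 0.5) scale. The 88 genes called higher (red) span the range of levels, Cyp24a1 stands apart from all others, and the 7 called lower (blue) show small changes but for the pair of genes near -2.

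The receptor and the enzymes of vitamin D metabolism showed a rise of 1 gene. Cyp24a1, the 24-hydroxylase that starts the breakdown of calcitriol, measured 0.749, 1.279, 5.38, 4.47, 0.114 and 64.7 FPKM in vehicle libraries 1 to 6. It measured 3275, 2337, 1881, 2959, 2964, 2893 and 403 FPKM in vitamin D libraries 1 to 7. The groups did not overlap, but vehicle 6 had the highest vehicle value and vitamin D 7 the lowest treated value. The log2 fold change was 9.10 ± 0.88 SE (adjusted p = 0.000274). Vdr, the receptor itself, ranged over 118, 189 and 208 FPKM (lowest, median and highest) in vehicle and 115, 176 and 194 FPKM in vitamin D libraries, which overlapped widely (log2 fold change -0.11 ± 0.15 SE, adjusted p = 0.909). Its partner Rxra ranged over 11.2, 15.5 and 18.7 FPKM in vehicle and 4.03, 12.1 and 13.9 FPKM in vitamin D libraries and was not called (log2 fold change -0.59 ± 0.24 SE, adjusted p = 0.498). Cyp27b1, the enzyme that makes calcitriol, stayed below the filter in all 13 libraries, at no more than 0.336 FPKM. Of the 14 members of the list of vitamin D receptor and metabolism that were tested, Cyp24a1 was the 1 called, and 3 had a positive fold change.

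Of the genes of transcellular calcium uptake, the channel and the pump rose. Trpv6 ranged over 0.427, 1.54 and 5.29 FPKM (lowest, median and highest) in vehicle and 12.49, 21.7 and 53.2 FPKM in vitamin D libraries. The groups did not overlap, and vehicle 1 and 2 were the highest of their group. The log2 fold change was 3.53 ± 0.46 SE (adjusted p = 0.00142), the largest after that of Cyp24a1. With the 4 plain-named libraries of each group alone it was 3.53 with an adjusted p of 0.0515. Atp2b1 ranged over 43.5, 46.8 and 86.2 FPKM in vehicle and 121, 152 and 178 FPKM in vitamin D libraries, again with no overlap (log2 fold change 1.50 ± 0.16 SE, adjusted p = 0.000523).

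S100g, which encodes calbindin-D9k, was the step whose groups overlapped. Its level was 131, 147, 149, 115, 470.0 and 328 FPKM in vehicle 1 to 6 and 852, 841, 562, 306, 284, 393 and 716 FPKM in vitamin D 1 to 7. Vehicle 5 and 6, the libraries with the most Apoa1, were the highest of their group, and vehicle 5 exceeded vitamin D 4, 5 and 6. The change, 1.42 ± 0.37 SE on the log2 scale, did not pass the threshold (adjusted p = 0.131). With the level of the small intestinal markers as a covariate, an alternative added after the data were seen, it was 1.50 ± 0.29 SE with an adjusted p of 0.0244. In the plain-named libraries it was 2.13 ± 0.30 SE with an adjusted p of 0.0162, and without vitamin D 1 and 2 it was 1.14 with an adjusted p of 0.429. Trpv5, Calb1 and Slc8a1, which serve the same transport in the kidney, were below the filter. Of the 5 list members tested, 2 were called higher, 4 had a positive fold change, and the median log2 fold change was 1.42.

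**Figure D3:**
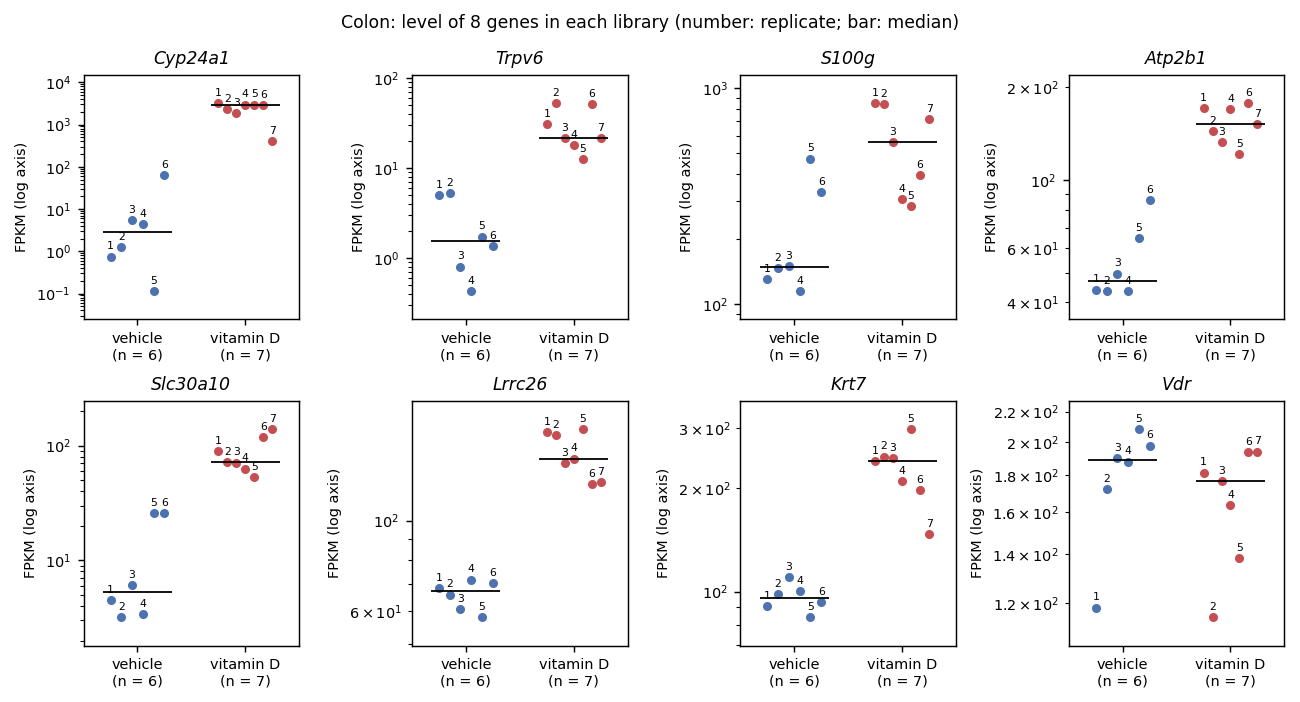
FPKM (log axis) of 8 genes in each of the 6 vehicle (blue) and 7 vitamin D (red) libraries of colon, numbered by replicate, with the median as a bar. Cyp24a1, Trpv6, Atp2b1, Slc30a10, Lrrc26 and Krt7 do not overlap between the groups, whereas S100g and Vdr do.

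The stores of calcium inside the cell were covered by a list of 13 genes, all tested. Orai3, a pore subunit of the channel that opens when stores empty, was the 1 member called: 11.2, 12.8 and 13.4 FPKM in vehicle against 13.1, 19.3 and 23.2 FPKM in vitamin D libraries. Vitamin D 7 was the only treated library within the vehicle range, and the log2 fold change was 0.58 ± 0.12 SE (adjusted p = 0.0334). Without vitamin D 1 and 2 it was 0.52 (adjusted p = 0.154). For Orai1 and Stim1, the main pore subunit and the calcium sensor of that channel, the changes of 0.51 ± 0.14 SE and 0.34 ± 0.10 SE were not called (adjusted p = 0.137 and 0.214).

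Handling of divalent metals changed at 2 transporters. Slc30a10, an exporter of manganese, ranged over 3.19, 5.28 and 25.9 FPKM (lowest, median and highest) in vehicle and 53.5, 71.7 and 139 FPKM in vitamin D libraries. The highest vehicle values, 25.8 and 25.9 FPKM, belonged to the libraries with the most Apoa1. The log2 fold change was 3.31 ± 0.48 SE (adjusted p = 0.00283), below only those of Cyp24a1 and Trpv6, and 3.33 without vitamin D 1 and 2. Slc39a8, an importer of manganese and zinc, rose from 18.5 ± 3.47 FPKM (SD, n = 6) to 42.3 ± 10.6 FPKM (SD, n = 7). No library of the groups overlapped, and the lowest treated value was 25.3 FPKM in vitamin D 7 (log2 fold change 1.15 ± 0.18 SE, adjusted p = 0.00452). The zinc importer Slc39a4 was higher in 6 of 7 vitamin D libraries than in any vehicle library but did not pass (0.55 ± 0.13 SE, adjusted p = 0.0825). The zinc exporter Slc30a1 had a change of 0.32 ± 0.15 SE (adjusted p = 0.589), and metallothioneins Mt1 and Mt2 had their highest values, 1739 and 1838 FPKM, in vitamin D 2. Of 23 genes of zinc, manganese and iron handling tested, 2 were called and 11 fold changes were positive (median log2 fold change -0.01).

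Promoters of the raised genes were searched for the element of the receptor, as a description of these sequences. RefSeq promoters of GRCm38.p6, from 250 bases before to 50 after each start, were found for 66 of the 88 raised genes and for 8192 of the 11540 genes tested. The files name mm9 as their build, so these coordinates come from the RefSeq table alone. The element searched was a pair of half-sites of 6 bases, 3 bases apart, each half-site being A or G, G, G or T, T, C, A in this order, on both strands and with overlaps allowed, and each window was scored by its matches at 12 positions. A window with at least 11 matches was present in 4 of 66 raised promoters (6.06%) and in 117 of 8192 (1.43%). A window with at least 10 was present in 13 (19.7%) and 1485 (18.1%), and the full 12 matches in 0 of 66 and in 1 of 8192 (0.0122%). The 4 promoters with 11 matches belonged to Krt7, Slc39a8, H2-Q2 and Gm8909, named because of these values. Those of H2-Q2 and Gm8909 are alike over most of their sequence, so the 4 are not independent counts. The 250 bases before the start are printed below for Trpv6 and Slc30a10, the largest rises with an entry, and for the related H2-Q2 and Gm8909, whose windows start at positions -133 and -138 from the start. Capitals mark the best window of each promoter, with 9 matches for Trpv6, 8 for Slc30a10 and 11 for the others.
Trpv6 (chr6:41636406-41636655, minus strand): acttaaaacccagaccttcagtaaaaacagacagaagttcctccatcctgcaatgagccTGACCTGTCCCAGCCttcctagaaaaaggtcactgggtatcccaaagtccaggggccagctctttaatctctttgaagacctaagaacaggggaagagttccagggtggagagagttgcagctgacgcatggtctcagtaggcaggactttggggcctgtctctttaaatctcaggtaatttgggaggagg
Slc30a10 (chr1:185454598-185454847, plus strand): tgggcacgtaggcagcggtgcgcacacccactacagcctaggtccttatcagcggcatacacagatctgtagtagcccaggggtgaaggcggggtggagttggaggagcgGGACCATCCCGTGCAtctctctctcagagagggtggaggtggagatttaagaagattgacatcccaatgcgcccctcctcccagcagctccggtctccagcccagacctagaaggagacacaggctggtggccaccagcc
H2-Q2 (chr17:35342057-35342306, plus strand): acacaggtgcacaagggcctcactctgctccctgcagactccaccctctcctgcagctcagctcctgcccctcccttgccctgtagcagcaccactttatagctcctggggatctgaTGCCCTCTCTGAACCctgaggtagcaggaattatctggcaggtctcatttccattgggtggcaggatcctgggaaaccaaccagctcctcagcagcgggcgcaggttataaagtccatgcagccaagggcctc
Gm8909 (chr17:36168538-36168787, minus strand): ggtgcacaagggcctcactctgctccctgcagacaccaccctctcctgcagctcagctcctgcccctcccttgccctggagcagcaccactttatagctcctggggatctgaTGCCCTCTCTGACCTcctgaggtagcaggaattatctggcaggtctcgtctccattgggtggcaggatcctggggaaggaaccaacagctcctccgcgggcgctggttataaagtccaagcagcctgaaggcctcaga
The windows of Trpv6, H2-Q2 and Gm8909 lie on the strand opposite to the gene, where they read GGCTGGGACAGGTCA, GGTTCAGAGAGGGCA and AGGTCAGAGAGGGCA. Those of Krt7 and Slc39a8 read AGGTCAGGGAGTTCG and ATTTCATGGAGGTCA on the strand of the gene and start at positions 15 and -243 from the start.

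The gene with the smallest p was Lrrc26, an accessory subunit of the large-conductance potassium channel. Its level was 68.4, 65.9, 60.6, 71.7, 58.0 and 70.4 FPKM in vehicle and 164, 162, 138, 142, 167, 123 and 124 FPKM in vitamin D libraries, so each group was tight and they were far apart. The log2 fold change was 1.13 ± 0.09 SE (adjusted p = 0.000112) and 1.07 without vitamin D 1 and 2. Kcnma1, the pore of that channel, was below the filter, at no more than 0.163 FPKM. Lrrc26 was the 1 member called among 32 genes of salt and water transport tested, of which 9 had a positive fold change (median -0.26). Values that did not pass include Cftr, the apical chloride channel (-0.58 ± 0.16 SE, adjusted p = 0.183), and Slc4a4, the basal sodium bicarbonate carrier (-0.81 ± 0.21 SE, adjusted p = 0.135). Subunits of the epithelial sodium channel had changes of -0.30, -0.33 and -1.17 for Scnn1a, Scnn1b and Scnn1g, with none called.

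Among junction and cytoskeletal genes, Krt7 rose, a keratin of simple epithelia. Its FPKM was 84.0, 95.7 and 110.3 (lowest, median and highest) in vehicle and 147, 241 and 298 in vitamin D libraries, with vitamin D 7 the lowest of the treated and above all vehicle libraries. The log2 fold change was 1.21 ± 0.14 SE (adjusted p = 0.00059). The other simple keratins Krt8, Krt18, Krt19 and Krt20 were not called, with log2 fold changes of -0.22, 0.01, -0.37 and -0.13. Of 20 desmosome, adherens junction and keratin genes tested, 1 was called and 5 had a positive fold change. None of 18 genes of tight junctions was called. Cldn15, a claudin that lets sodium pass, came nearest, at 105, 110.4 and 162 FPKM in vehicle and 132, 235 and 390.1 FPKM in vitamin D libraries (log2 fold change 0.90 ± 0.20 SE, adjusted p = 0.0593), and Cldn8, a claudin of the distal gut, had a change of -0.94 ± 0.30 SE (adjusted p = 0.29). Cldn2, a claudin raised by the hormone in other settings, had means of 101 FPKM in vehicle and 163 FPKM in vitamin D libraries (adjusted p = 0.695). Scel, which encodes sciellin, a protein of cornified envelopes, rose from 1.55 to 4.16 FPKM (log2 fold change 1.14 ± 0.23 SE, adjusted p = 0.0324), and by 1.09 without vitamin D 1 and 2 (adjusted p = 0.147).

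Of 18 genes tested whose symbols place them in the major histocompatibility complex class I family, a set put together after the values were seen, 4 were called higher and none lower. The other 14 were not called, 13 of the 18 had a positive fold change, and the median log2 fold change was 0.15. The classical genes H2-K1 and H2-D1, which present peptides to T cells, had changes of 0.01 and 0.08 (adjusted p = 0.994 and 0.927). H2-Q2 measured 48.0, 83.4 and 130.3 FPKM (lowest, median and highest) in vehicle and 169, 197 and 238 FPKM in vitamin D libraries (log2 fold change 1.29 ± 0.20 SE, adjusted p = 0.00423). H2-Q1 measured 27.6, 39.6 and 79.7 FPKM in vehicle and 108, 130.2 and 169 FPKM in vitamin D libraries (log2 fold change 1.54 ± 0.22 SE, adjusted p = 0.00269). H2-Bl rose by 2.43 from a vehicle mean of 3.05 FPKM, and Gm8909 by 1.48 from 17.3 FPKM. No group of these 4 genes overlapped but that of Gm8909, whose value of 33.4 FPKM in vehicle 6 exceeded the 28.0 FPKM of vitamin D 3. In all 4, vehicle 5 and 6 held the highest vehicle values. These genes belong to a family of near-identical copies between which the reads may have been split, so the share of each is uncertain. Gm8909 was no longer called without vitamin D 1 and 2 (1.48, adjusted p = 0.121). Class II genes were not called: 6 of 6 tested had a positive fold change (median 0.37), and Cd74 measured 45.8 to 209 FPKM in vehicle and 58.4 to 344 FPKM in vitamin D libraries. Of 16 interferon-stimulated genes none was called (median log2 fold change 0.09).

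A further 4 raised genes with known roles in immunity were set side by side after their values were seen, and share no list. Tlr5, the receptor for bacterial flagellin, rose from 3.28 to 6.45 FPKM (log2 fold change 0.88 ± 0.16 SE, adjusted p = 0.0146). Tnfsf13b, the B cell survival factor BAFF, rose by 0.80 ± 0.15 SE (adjusted p = 0.0146), Icosl, a ligand of a T cell costimulator, by 0.70 ± 0.13 SE (adjusted p = 0.015), and Fgl2, a fibrinogen-like protein, by 1.16 ± 0.22 SE (adjusted p = 0.017). All 4 lost their call without vitamin D 1 and 2, with log2 fold changes of 0.83, 0.73, 0.71 and 0.96 and adjusted p-values of 0.065, 0.0886, 0.0666 and 0.0823. Macrophage markers summed to 20.4 to 76.0 FPKM in vehicle and 21.6 to 141 FPKM in vitamin D libraries, lymphocyte markers to 31.4 to 105 and 35.6 to 224 FPKM. The part of such cells in these 4 results was not tested. None of 16 genes of mucosal defence was called.

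Enzymes that act on lipids and on small carbonyl compounds formed a further group, put together after the values were seen. Ptges, the inducible synthase of prostaglandin E2, ranged over 0.925, 1.15 and 1.61 FPKM (lowest, median and highest) in vehicle and 2.08, 4.33 and 8.01 FPKM in vitamin D libraries without overlap (log2 fold change 1.57 ± 0.25 SE, adjusted p = 0.0053). It was the 1 gene called of 13 in prostaglandin synthesis and clearance. Hpgd, which inactivates prostaglandins, had a change of -0.65 ± 0.21 SE that did not pass (adjusted p = 0.283). Pla2g3, a secreted phospholipase A2, ranged over 2.32, 4.75 and 10.2 FPKM in vehicle and 11.9, 16.4 and 28.8 FPKM in vitamin D libraries (log2 fold change 1.72 ± 0.31 SE, adjusted p = 0.0131), and again no library overlapped.

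Cbr2, a carbonyl reductase, was at 14.8, 19.8, 11.8, 17.8, 21.4 and 8.77 FPKM in vehicle and at 149, 72.5, 90.6, 69.8, 174, 113 and 18.9 FPKM in vitamin D libraries. Vitamin D 7 was within the vehicle range and the other 6 were far above it. The log2 fold change was 2.42 ± 0.42 SE (adjusted p = 0.0102), and 2.28 without vitamin D 1 and 2 (adjusted p = 0.0632). Dcxr, which reduces dicarbonyls and xylulose, ranged over 19.3, 20.3 and 29.6 FPKM in vehicle and 30.0, 49.0 and 75.4 FPKM in vitamin D libraries (log2 fold change 1.13 ± 0.18 SE, adjusted p = 0.00499), every treated library being above every vehicle library. Hsd17b2, which inactivates oestradiol and testosterone, rose from 163 to 264 FPKM (0.72 ± 0.15 SE, adjusted p = 0.0351, and 0.192 without vitamin D 1 and 2). Gstp1, a glutathione transferase, rose from 790.3 to 1209.8 FPKM (0.61 ± 0.13 SE, adjusted p = 0.0401, and 0.193 without vitamin D 1 and 2). It was the 1 rise among 25 genes of glutathione and oxidative stress, of which Gclc fell. Ppard, a nuclear receptor for fatty acids, rose from 128 ± 6.95 FPKM (SD, n = 6) to 216 ± 31.99 FPKM (SD, n = 7), with a log2 fold change of 0.73 ± 0.10 SE (adjusted p = 0.00161). No other gene in a list of 20 of fatty acid oxidation and its targets was called: Angptl4, Pdk4 and Cpt1a had changes of 0.40, 0.15 and 0.17. Acacb, an acetyl-CoA carboxylase, and Agpat2, an acyltransferase of phospholipid and triglyceride synthesis, rose by 0.93 and 0.55 (adjusted p = 0.0203 and 0.0102), and were not called without vitamin D 1 and 2 (adjusted p = 0.126 and 0.0693).

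Further raised genes encode signalling and secreted proteins. Among small GTPases of the cytoskeleton and their regulators, Rhov rose from 1.22 to 5.67 FPKM (log2 fold change 1.84 ± 0.21 SE, adjusted p = 0.000653), Rac3 from 4.78 to 16.3 FPKM (1.55 ± 0.28 SE, adjusted p = 0.015), and Srgap3, which switches such GTPases off, from 2.39 to 5.81 FPKM (1.11 ± 0.15 SE, adjusted p = 0.0017). Each treated library exceeded each vehicle library in these 3 genes. Rac3 alone of them missed the threshold without vitamin D 1 and 2 (1.52, adjusted p = 0.061). Pdlim2, an adaptor that promotes the breakdown of NF-kB, ranged over 7.19, 17.8 and 25.4 FPKM in vehicle and 45.6, 55.5 and 82.4 FPKM in vitamin D libraries (1.86 ± 0.25 SE, adjusted p = 0.0017). Lpar1, a receptor for lysophosphatidic acid, rose by 0.74 ± 0.08 SE (adjusted p = 0.000523), a small change with tight groups of 13.6, 14.3 and 17.5 FPKM in vehicle and 22.3, 25.5 and 27.5 FPKM in vitamin D libraries. The G protein subunits Gnb5 and Gnaq rose by 1.25 and 0.38 (adjusted p = 0.00142 and 0.0262), the second of them not without vitamin D 1 and 2 (adjusted p = 0.121).

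Of the secreted proteins, Prelp, a proteoglycan of the matrix, measured 4.56, 4.65, 12.7, 6.02, 4.65 and 2.40 FPKM in vehicle and 62.6, 48.9, 46.9, 24.4, 51.2, 27.2 and 8.30 FPKM in vitamin D libraries. Vehicle 3 exceeded vitamin D 7, and the log2 fold change was 2.56 ± 0.43 SE (adjusted p = 0.00934). Without vitamin D 1 and 2 it was 2.26 (adjusted p = 0.0632), and the summed fibroblast markers were highest in those libraries, as given above. Fgfbp1, which releases fibroblast growth factors from the matrix, ranged over 56.5, 74.1 and 91.7 FPKM in vehicle and 116, 128 and 152 FPKM in vitamin D libraries (0.86 ± 0.11 SE, adjusted p = 0.00142), and Hpse, an enzyme that cuts heparan sulphate, over 5.41, 6.49 and 7.41 FPKM in vehicle and 11.3, 17.04 and 22.9 FPKM in vitamin D libraries (1.36 ± 0.16 SE, adjusted p = 0.000653). Both were raised with no overlap. A pair of further secreted proteins lost their calls: Cthrc1, a secreted collagen-triple-helix protein, went from 0.339 to 3.97 FPKM (2.16, adjusted p = 0.0232, and 0.115 without vitamin D 1 and 2), having passed the filter through the vitamin D libraries alone, and Fndc5, the precursor of irisin, from 4.02 to 16.9 FPKM (1.74, adjusted p = 0.0299, and 0.158 without them). Vitamin D 7 was at 0.370 and 4.21 FPKM, within the vehicle range in both. Other raised genes included Ank3 (ankyrin-G, a membrane anchor, 1.36), Myo19 (a motor of mitochondria, 1.07), Stard5 (a sterol-binding protein, 1.00), Gars (glycyl-tRNA synthetase, 1.09), Bach1 (a haem-regulated repressor, 0.78) and Gdpd5 (a glycerophosphodiesterase, 2.31), with adjusted p-values of 0.00142, 0.00142, 0.00112, 0.00549, 0.00603 and 0.00231.

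The 7 genes that fell had log2 fold changes of -0.30 to -2.01, the largest being those of Cldnd1 and 2310079G19Rik. Hif1a, the oxygen-regulated transcription factor, ranged over 22.1, 25.9 and 33.4 FPKM (lowest, median and highest) in vehicle and 14.0, 15.5 and 22.8 FPKM in vitamin D libraries. Vitamin D 6 alone lay within the vehicle range, and the log2 fold change was -0.64 ± 0.13 SE (adjusted p = 0.0291). Sox13, another transcription factor, fell from 29.0 to 18.99 FPKM (-0.61 ± 0.10 SE, adjusted p = 0.00779) with no overlap. Gclc, the rate-limiting enzyme of glutathione synthesis, had a change of -0.45 ± 0.09 SE (adjusted p = 0.0403), Smpd3, a neutral sphingomyelinase, of -0.48 ± 0.10 SE (adjusted p = 0.0433), and Sipa1l1, a regulator of Rap proteins, of -0.30 ± 0.06 SE (adjusted p = 0.0351). Cldnd1 was listed at 1.51, 3.01, 1.35, 1.76, 1.98 and 3.41 FPKM in vehicle and at 0, 0, 0.0300, 0, 0, 2.03 and 0 FPKM in vitamin D libraries, 5 of them at 0. It passed the filter through the vehicle libraries alone, its log2 fold change was -2.01 ± 0.37 SE (adjusted p = 0.0166), and it was not called in the authors' deposited table (adjusted p = 0.426). 2310079G19Rik, a gene named only by its clone, ranged over 7.13, 9.51 and 16.2 FPKM (lowest, median and highest) in vehicle and 0.914, 1.53 and 6.83 FPKM in vitamin D libraries. The groups did not overlap, and the log2 fold change was -1.87 ± 0.38 SE (adjusted p = 0.0324). Of the 7, Sox13 and 2310079G19Rik were still called without vitamin D 1 and 2. For Hif1a, Gclc, Smpd3, Sipa1l1 and Cldnd1 the adjusted p was then 0.116, 0.173, 0.116, 0.144 and 0.106.

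Gene groups outside these were not called changed. None of the 12 epithelial identity, 14 surface colonocyte, 15 goblet cell, 14 enteroendocrine and 8 tuft cell genes tested passed the threshold, with median log2 fold changes of -0.10, -0.11, -0.10, -0.01 and -0.10. The same was true of 30 cell cycle genes (median 0.15, 24 positive), 17 stem cell and Wnt target genes (median -0.24), 14 clock genes (median -0.21) and 27 genes of drug metabolism (median -0.05). Of 10 glucocorticoid response genes, 9 had a negative fold change (median -0.53) and none was called. Dusp1, a phosphatase, came nearest of these, at 16.7 to 25.0 FPKM in vehicle and 7.64 to 21.3 FPKM in vitamin D libraries (-0.83 ± 0.19 SE, adjusted p = 0.0744). Sgk1, a kinase induced by these steroids, had means of 148 FPKM in vehicle and 71.5 FPKM in vitamin D libraries (-1.09 ± 0.40 SE, adjusted p = 0.403).

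The response differed in size between vitamin D libraries. Vitamin D 7 was the lowest of the 7 in 48 of the 88 raised genes, and it lay above all vehicle libraries in 74, compared with 84 to 88 for each of the other 6. Its median log2 excess over the vehicle mean in these genes was 0.65, and that of the others 0.90 to 1.29. Vehicle 6 was the highest vehicle library in 39 of the 88 genes. When vehicle 6 and vitamin D 7 were left out together, 108 genes were called higher and 10 lower. Without vitamin D 7 alone, 121 were higher and 20 lower. Since the 88 genes were chosen on these libraries, these counts are descriptions.

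Some calls did not hold with 1 library fewer, several of them whichever of most libraries was left out. With each of the 13 libraries left out in turn, 64 of the 95 calls held every time and 31 were lost at least once, with a highest adjusted p of 0.139. Those of Cyp24a1, Trpv6, Atp2b1, Slc30a10, Slc39a8, Lrrc26, Krt7, Ptges, Pla2g3, Ppard, Cbr2, Prelp, H2-Q2, Dcxr and Sox13 held every time. Icosl, Tnfsf13b and Cldnd1 were lost without vehicle 2 alone (adjusted p = 0.0532, 0.0518 and 0.0593). Fgl2 and Ptprj were lost without vehicle 2 or 4 (highest adjusted p 0.0593 and 0.0540), and Acacb without vehicle 2, 3 or 4 or vitamin D 1 (highest 0.0626). The calls of Cthrc1, Gm8909, Hif1a and Hsd17b2 were lost in 8 of the 13 fits, that of Smpd3 in 9, those of Orai3, Gstp1, Gclc, Fndc5, Scel, Gnaq and 2310079G19Rik in 11, and that of Sipa1l1 in 12. Their highest adjusted p was 0.127, for Smpd3.

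**Figure D4:**
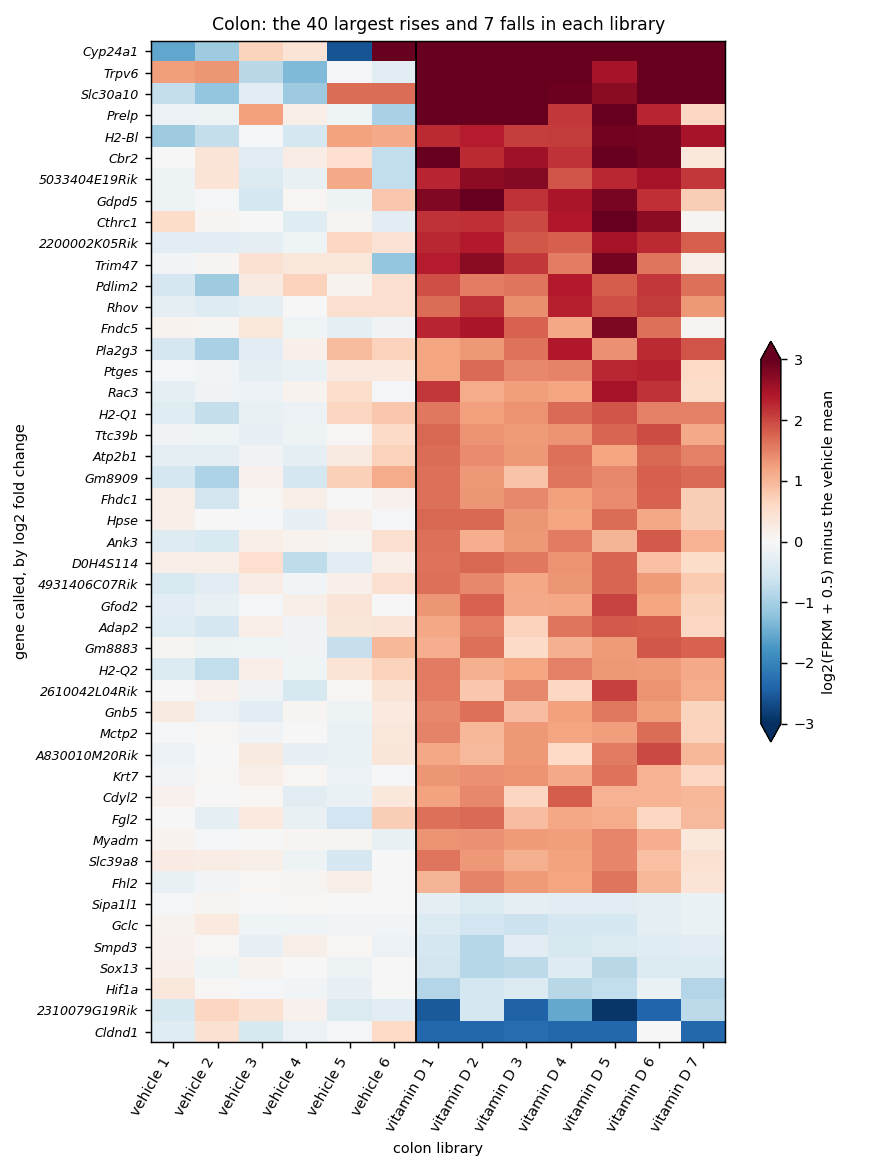
Level of the 40 called genes with the largest rises and of the 7 that fell in each colon library, as log2(FPKM + 0.5) minus the mean of the 6 vehicle libraries, with genes ordered by log2 fold change and colours limited at 3 in each direction. Vitamin D 1 to 6 are alike in most rows, and vitamin D 7 is paler in many of the upper ones.

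The colon was then set beside the villus and crypt libraries of the small intestine, which had 6 vehicle with 7 vitamin D and 6 with 6 libraries and were tested in the same way in their own tables. Of the 88 genes raised in colon, 71 passed the filter and were tested in villi and 74 in crypts. In villi 43 were also raised, which is 48.9% of the colon list and 20.4% of the 211 genes raised there (2.17% of those tested). In crypts 33 were also raised, 37.5% of the colon list and 27.3% of the 121 raised there (1.13% of those tested). Both tissues shared 25 with the colon, Cyp24a1, Atp2b1, Lrrc26, Krt7, Ppard, Slc30a10 and Slc39a8 among them, and 37 were called in neither. Of these 37, 12 were below the filter in both tissues. None of the 88 was called lower in villi or crypts, and of the 7 genes that fell in colon, Sox13 also fell in villi.

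The difference between the colon response and each other response was tested in 1 limma fit over all 38 libraries, for the genes passing the colon filter. The labels used here do not say whether libraries of different tissues came from the same mice, and the fit took all of them as independent. Against villi 59 genes differed (0.511%), 20 with a higher response in colon (0.173%) and 39 with a lower one (0.338%). Against crypts 17 differed (0.147%), 8 higher (0.0693%) and 9 lower (0.0780%). Without vitamin D 1 and 2 the counts were 15 and 27 against villi and 7 and 8 against crypts.

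The channel Trpv6 had a larger response in colon than in villi, by 2.46 ± 0.58 SE on the log2 scale (adjusted p = 0.0364), and its villus levels were 0.227 to 1.64 FPKM in vehicle and 0.206 to 3.79 FPKM in vitamin D libraries. That difference was 2.22 without vitamin D 1 and 2 (adjusted p = 0.127). Left out singly, vehicle 3, 4, 5 or 6 or vitamin D 1, 2 or 6 also ended its call, with a lowest difference of 2.19 and a highest adjusted p of 0.0849. It was not called with a pseudocount of 0.1 (2.36, adjusted p = 0.348), with the smooth muscle level as a covariate (2.22, adjusted p = 0.128) or without vehicle 6 and vitamin D 7 together (2.44, adjusted p = 0.0659). With a pseudocount of 1 it was 2.43 (adjusted p = 0.00422). The libraries of villi had low levels of the gene, and the difference from crypts, 2.29 ± 0.59 SE, was not called (adjusted p = 0.199). For Atp2b1 the differences of 0.16 ± 0.22 SE and -0.06 ± 0.22 SE from villi and crypts were not called, and neither were those of S100g (0.07 ± 0.54 SE and -1.95 ± 0.55 SE). Fhl2, a LIM protein that binds transcription factors, rose in colon (1.14 ± 0.16 SE) and had a change of -0.50 in villi, a difference of 1.64 ± 0.22 SE (adjusted p = 8.22e-05). Ptges differed from both tissues, by 1.45 ± 0.25 SE from villi and 1.39 ± 0.26 SE from crypts (adjusted p = 0.0014 and 0.00702), and its highest level there was 0.596 FPKM in villi and 0.771 FPKM in crypts. Srgap3, Scel and Cbr2 likewise differed from both (adjusted p = 0.000291, 0.00263 and 0.00658 against villi), and all 3 were under 1 FPKM in every villus and crypt library. The pseudocount of 0.5 exceeded most of those values, which limits the change that this scale can show there. Rac3 and Pla2g3 differed from villi by 1.83 ± 0.28 SE and 1.37 ± 0.33 SE (adjusted p = 0.000291 and 0.0438), and Dcxr, at 14.3 FPKM in villus vehicle libraries, by 1.13 ± 0.28 SE (adjusted p = 0.0487). Pla2g3 too was under 1 FPKM in every villus library.

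Of the genes with a lower response in colon, 36 of 39 against villi and 7 of 9 against crypts had no called change in colon. Slc37a2, a sugar phosphate exchanger, measured 12.0, 33.3, 59.6, 40.8, 108 and 120.1 FPKM in vehicle and 107, 15.1, 40.3, 22.7, 26.1, 157 and 92.9 FPKM in vitamin D libraries of colon, and these overlapped widely. Its villus mean went from 15.0 to 97.3 FPKM and its crypt mean from 8.29 to 72.8 FPKM, with differences of -2.76 ± 0.65 SE and -3.25 ± 0.66 SE (adjusted p = 0.036 and 0.0194). Gstm1, a glutathione transferase, had a change of 0.02 in colon at a vehicle mean of 271 FPKM, and of 2.29 in villi (adjusted p of the difference 0.0169). Pgap1, which acts on lipid-anchored proteins, differed by -1.54 ± 0.25 SE from villi and -1.38 ± 0.26 SE from crypts (adjusted p = 0.000532 and 0.00702). The zinc exporter Slc30a1 had a change of 0.32 in colon against 1.37 in villi and 1.39 in crypts (adjusted p = 0.0136 and 0.03, the second 0.0569 without vitamin D 1 and 2). Cnnm1, of the family of magnesium transporters, had the smallest p against crypts, with a difference of -1.77 ± 0.16 SE (adjusted p = 8.57e-09) and a colon change of -0.35. Orai1, the pore of store-operated entry, had a change of 0.51 in colon and 1.42 in villi (adjusted p of the difference 0.0487). Ptprj, a receptor phosphatase, rose in all 3 tissues, yet less in colon (0.86) than in villi (1.82, adjusted p of the difference 0.028). The rise of Ptprj in colon had an adjusted p of 0.015, and of 0.0537 without vitamin D 1 and 2. Without these libraries the differences from villi of Ptprj, Slc37a2, Orai1 and Dcxr were no longer called (adjusted p = 0.0663, 0.0537, 0.0668 and 0.0869).

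**Figure D5:**
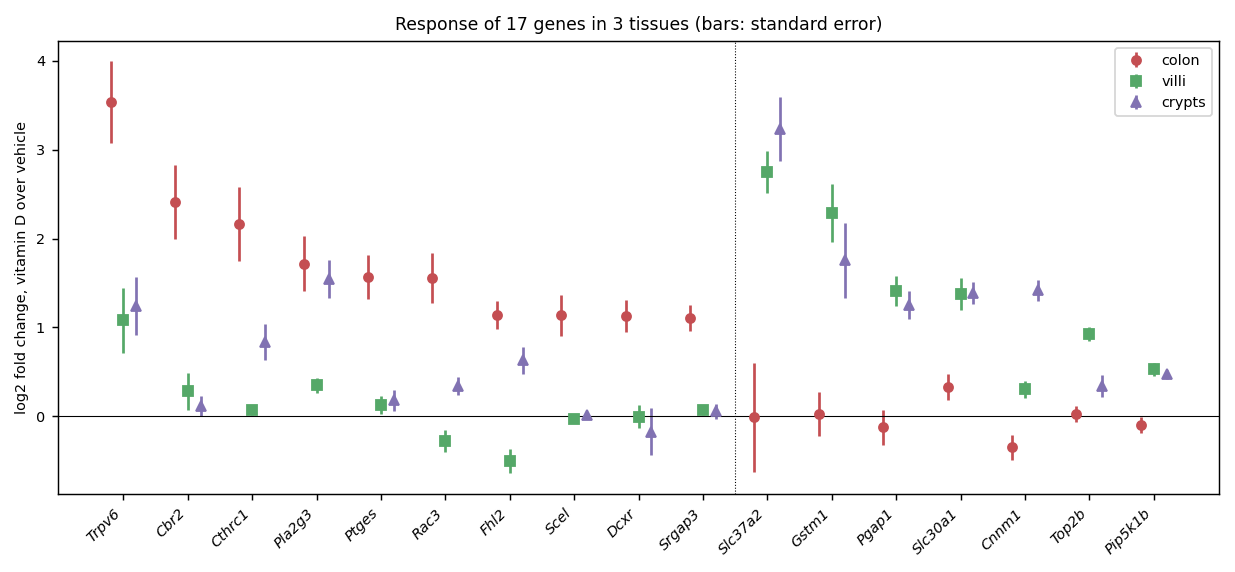
Log2 fold change of vitamin D over vehicle with its standard error for 17 genes in colon (red), villi (green) and crypts (purple). The 10 genes on the left have a response called higher in colon than in villi, and the 7 on the right one called lower. Against crypts, Trpv6, Cthrc1, Pla2g3, Rac3, Fhl2, Gstm1 and Top2b were not called.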

How the data were processed

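RNA-seq libraries of colon, villi and crypts were analysed from the authors' tables. FPKM values are as deposited by the authors, 1 table per tissue, and nothing was rescaled. For colon, the authors' deposited table also gives a mean normalized signal, log2 fold changes with errors, a test score, and p-values. The submitters' processing notes list the build mm9 and the tools DESeq2, DESeq 1.28.1 and kallisto 0.45.0, without tying a tool to a column. Samples were grouped by their titles.

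Genes reaching an FPKM of 1 in 6 or more colon libraries entered limma 3.58.1 (R 4.3.3) as log2(FPKM + 0.5) (a mean-variance trend, 2 groups, Benjamini-Hochberg adjustment, two-sided). Differences between tissues were contrasts of 1 fit over all 38 libraries. The 3 tables were taken as normalized separately, so levels set side by side across tissues may be on separate scales. Depth was estimated from steps between low values, 78.9% to 90.4% of which were whole within 0.05 reads. The fit was tested on simulated data. Of 677 listed genes in 41 lists, 661 matched by symbol and 9 by an older symbol. The members and the lists were chosen with earlier results of these data known. Genes were named by a rule: the receptor, its metabolism and calcium genes, the 15 largest rises and 12 largest falls with a mean of 2 FPKM, up to 4 called members of each list or 2 as values, up to 6 genes per direction of each tissue difference, and smooth muscle genes. Other genes named here were chosen after their values were seen. Alternatives covered pseudocount, filter, scaling, weights, covariates, blocks and libraries left out. A few results are not reported here.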

Additional observations from a re-analysis of the deposited data

Results flagged for a closer look

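A library stood apart from the rest of its group in 9 of 110 groups of values tested on the log2 scale, where about 5.5 would do so by chance. Vitamin D 7 was the lowest of the treated libraries for Cyp24a1 (403.4 FPKM), Cbr2 (18.89 FPKM) and Gdpd5 (2.911 FPKM). Vehicle 6 was the lowest for Orai3 (11.18 FPKM), the highest for Bach1 (22.48 FPKM), and was listed at 0 for Trim47. Vehicle 1 had the lowest Vdr of its group (118.3 FPKM), vitamin D 6 the highest Cldnd1 (2.031 FPKM), and vitamin D 2 the lowest Smpd3 (21.22 FPKM).

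The response to vitamin D differed between colon and villi in the joint limma fit, as colon minus villi on the log2 scale, for Trpv6 (2.46), Cbr2 (2.13), Rac3 (1.83), Fhl2 (1.64), Ptges (1.45), Pla2g3 (1.37), Scel (1.17), Dcxr (1.13), Srgap3 (1.04) and Mapkapk3 (0.85). It was lower in colon for Slc37a2 (-2.76), Gstm1 (-2.26), Pgap1 (-1.54), Ppl (-1.09), Slc30a1 (-1.05), Ptprj (-0.96), Arfgef2 (-0.91), Orai1 (-0.91), Top2b (-0.90), Zfp961 (-0.79) and Pip5k1b (-0.62). Single libraries left out in turn ended the call for Trpv6 in 7 of 13 fits, Slc37a2 and Pla2g3 in 8, Orai1 in 10, Dcxr in 11 and Ptprj in 2. Cbr2, Ptges, Pla2g3, Scel and Srgap3 were under 1 FPKM in every villus library, where the pseudocount of 0.5 limits the change that can show.

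Against crypts the response was higher in colon for Cbr2 (2.30), Ptges (1.39), Scel (1.13), Srgap3 (1.05), Cdyl2 (1.05) and Cnksr3 (0.81). It was lower for Slc37a2 (-3.25), Cnnm1 (-1.77), Pgap1 (-1.38), Nceh1 (-1.21), Slc30a1 (-1.06) and Pip5k1b (-0.57). The call of Slc37a2 was lost without vehicle 6 (adjusted p = 0.0582), that of Nceh1 without vehicle 3, vehicle 6 or vitamin D 4 (highest adjusted p 0.0638), and that of Slc30a1 in 5 fits (highest 0.0859). Cbr2, Ptges, Scel, Srgap3 and Cdyl2 were under 1 FPKM in every crypt library. Cdyl2 also passed the colon filter through the vitamin D libraries alone. The pseudocount of 0.5 limits the change that can show at such levels. What lies behind these differences was not tested.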

How the results depend on the processing

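Under all alternatives run, each of the 95 called genes that was still tested kept the sign of its fold change. Library weights gave 149 genes higher and 27 lower. Without vitamin D 1 and 2 there were 54 and 4, and leaving out 1 library at a time gave 65 to 121 higher (fewest without vehicle 2, most without vitamin D 7) and 1 to 20 lower. As covariates, the naming style gave 98 higher and 12 lower, the sex pattern 119 and 13, and the smooth muscle level 81 and 5. With the smooth muscle level, 76 of the 88 rises and 3 of the 7 falls were still called. The plain-named libraries alone gave 71 higher and 7 lower, with 61 of the 88 rises and 1 of the 7 falls still called. Pseudocounts of 0.1 and 1 gave 85 and 87 higher, no filter 77, and median-ratio scaling 88.

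The labels do not say whether the replicate numbers in the titles mark a shared mouse, litter or day. After removal of the group means, same-numbered libraries correlated at 0.0569 to 0.572. Of 6 vehicle libraries, 1 correlated best with its own number. Such correlations cannot settle the pairing, since other differences between libraries also enter them. As a replicate block the title numbers gave 120 higher and 27 lower, with 81 of the 88 rises and 3 of the 7 falls still called. With this block 81.6% of calls were higher, against 92.6% without it. The numbers in the column names, at 0.0593 to 0.648 with 2 of 6 best matched to their own number, gave 76 and 5, with 63 of the 88 and 2 of the 7. Within tissues the block gave 71 higher and 123 lower responses against villi and 23 and 21 against crypts.

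A pseudocount of 0.1 gave 13 higher responses against villi and 2 against crypts. A filter of 5 FPKM gave 4 higher against crypts, and the smooth muscle level as a covariate gave 5 higher and 3 lower there. With 1 library left out, the counts were 15 to 29 higher and 26 to 45 lower against villi and 7 to 10 and 6 to 12 against crypts. Of 59 calls against villi 37 held every time, and of 17 against crypts 12. The causes were not tested. Genes near 1 FPKM rest on few reads at these depths.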
